A study of Homo sapiens with 6 samples.

Results

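The EGF family ligands and the ERBB receptors were followed in PaTu8988t cells, an established human cell line from a pancreatic ductal adenocarcinoma (PDAC), with and without the chromatin regulator SAMD1. The members were 6 ligand genes (*AREG*, *EREG*, *HBEGF*, *TGFA*, *BTC* and *NRG1*) and 4 receptor genes (*EGFR*, *ERBB2*, *ERBB3* and *ERBB4*), chosen by gene symbol, and all 10 of the 10 were found among the 20347 symbols of the expression table. RNA-seq libraries were made from 3 replicates of control cells, which carried the Lenti-CRISPR V2 plasmid with an unspecific guide, and from 3 *SAMD1* KO clones, which carried the same plasmid with guides against *SAMD1*. All cells had been selected for the plasmid and none received a further treatment. Each KO library is 1 clonally independent line, so the spread of the KO group includes differences between clones. Nothing in the labels says that the control replicates came from separately derived lines, so p-values measure the spread between these 6 libraries.

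EGF family ligands are made as membrane-anchored precursors, and cleavage at the cell surface by ADAM proteases releases the soluble growth factor. AREG, EREG, HBEGF, TGFA and BTC bind EGFR, and several of them also bind ERBB4, while NRG1 binds ERBB3 and ERBB4. ERBB2 has no known ligand and acts as a dimerization partner, ERBB3 has little kinase activity of its own, and activated receptor pairs signal through the RAS–ERK and PI3K–AKT pathways. In the pancreas, TGFA and EGFR are known for driving acinar cells towards a ductal state at the onset of PDAC.

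The values are read counts divided by 1 size factor per library, called normalized counts below. Libraries held from 35589477 to 45172216 reads. A gene was tested with limma when its mean normalized count was at least 10, which 7 of the 10 members and 12773 genes in all passed, and it was called when its log2 fold change exceeded 0.5 in either direction with an unadjusted p below 0.01. Adjusted p-values were obtained by the Benjamini-Hochberg method across the 12773 genes. *SAMD1*, the targeted gene, was at 2231, 2382 and 2299 normalized counts in control and at 874, 1082 and 825 in KO clones 1 to 3, with a log2 fold change of -1.32 (SE 0.10, limma adjusted p = 0.000724). Of 6 epithelial markers, 5 were above a floor of 3 reads in every library and *KRT19* was listed at 0 in all of them. The summed normalized count of these markers, mostly *KRT8* and *KRT18*, ran from 62727 to 65936 in control and from 67655 to 108596 in the clones. *KRT7* and *KRT18* were called higher (limma adjusted p = 0.00392 and 0.0598). *KRT8*, *EPCAM* and *CDH1* were not called, with log2 fold changes of 0.37, -0.065 and 0.17. *KRT7* and *CDH1* were low, with control means of 30.2 and 38.3. Among markers of other cell types, *CD3E*, *DCN* and *LUM* were listed at 0 in all 6 libraries and *PTPRC* had at most 3 reads. The leukocyte list summed to 355 to 370 in control and 244 to 328 in KO, with *CD68* alone above the floor. The endothelial list summed to 77.8 to 84.8 and 33.6 to 83.6, with 2 of 3 above the floor. The fibroblast list summed to 52.8 to 56.1 and 30.6 to 56.2, with 1 of 4 above it. These sums were small beside the epithelial sum. *PDGFRA*, of the fibroblast list, rose from 3.98 ± 0.57 to 17.9 ± 5.06 (SD, n = 3 each). It had only 4, 4 and 3 reads in control and 24, 17 and 17 in KO clones 1 to 3. The gene passed the count minimum through the KO group alone, so its call is weak. *COL1A1* of the same list was at 50.6 ± 1.91 in control and 26.2 ± 13.6 in KO, and the endothelial *CDH5* at 33.1 ± 4.28 and 10.6 ± 7.21, both without overlap but not called (limma adjusted p = 0.0980 and 0.0748). The part of these marker differences in the results below was not tested. All 6 libraries came from the same cell line, so the markers of other cell types describe RNA of PaTu8988t cultures. In bulk RNA, a change in some of the cells and a change in all of them cannot be told apart.

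SAMD1 binds unmethylated CpG-rich promoters, and the motif GCGC lies at the core of the sequence its DNA-binding domain is known to recognize. GCGC reads the same on both strands, and matches that overlap each other were counted. In a RefSeq promoter table on GRCh38.p14, with 250 bases before and 50 bases after each start, 8 members had an entry and gave 10 promoters, and *NRG1* and *ERBB3* had none. GCGC was present in 8 of these 10 promoters, beside 57.2% of all 35116 promoters in the table and 69.5% of the 21395 promoters of genes in the expression table. The 250 bases upstream of the start are given here for the members that were lower in every KO clone and had an entry, with GCGC in capitals. *HBEGF* (chr5:140346604-140346853, minus strand), *EGFR* (its upstream start, chr7:55018767-55019016, plus strand) and *AREG* (chr4:74444886-74445135, plus strand) are printed from 5′ to 3′.
HBEGF: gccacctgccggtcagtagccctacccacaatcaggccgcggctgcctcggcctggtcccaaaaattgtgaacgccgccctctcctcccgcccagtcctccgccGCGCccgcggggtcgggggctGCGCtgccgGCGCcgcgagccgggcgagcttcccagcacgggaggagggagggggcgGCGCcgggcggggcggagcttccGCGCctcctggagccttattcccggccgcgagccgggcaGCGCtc
EGFR: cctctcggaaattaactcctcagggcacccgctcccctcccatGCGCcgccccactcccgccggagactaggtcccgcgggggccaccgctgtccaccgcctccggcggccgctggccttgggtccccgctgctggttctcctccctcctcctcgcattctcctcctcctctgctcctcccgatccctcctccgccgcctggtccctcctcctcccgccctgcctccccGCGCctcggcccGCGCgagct
AREG: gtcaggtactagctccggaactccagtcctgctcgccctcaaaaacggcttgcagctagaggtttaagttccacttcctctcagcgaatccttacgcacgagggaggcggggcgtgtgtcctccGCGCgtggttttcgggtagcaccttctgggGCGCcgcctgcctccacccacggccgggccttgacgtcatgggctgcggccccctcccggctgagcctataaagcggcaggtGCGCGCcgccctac

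The upstream stretch of *HBEGF* holds 6 GCGC matches, that of *EGFR* 3 and that of *AREG* 4, of which 2 overlap in the run GCGCGC. Over the whole window of 300 bases, the counts were 6 for *HBEGF*, 5 for *AREG*, 5 and 0 for the upstream and downstream starts of *EGFR*, 4 for each of the 2 starts of *TGFA*, 3 for *ERBB2*, 2 for *ERBB4*, 1 for *BTC* and 0 for *EREG*. The promoters of *TGFA*, the member that rose, and of *HBEGF*, *EGFR* and *AREG* held the motif, except at the downstream start of *EGFR*. Those of *ERBB2*, *ERBB4* and *BTC* held it too, so the motif was not particular to the members that rose or fell. A match is a description of these letters and not a measured binding site.

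Among the 7 tested members, 1 was called higher and 0 lower in limma, edgeR and DESeq2 alike, beside 5.77% of all tested genes called higher and 2.08% called lower in limma. An unadjusted limma p below 0.05 was reached by 1 member that was higher and 2 that were lower, beside 16.1% and 13.5% of all tested genes. With an adjusted p below 0.05 in place of the cut-off, 1 member was higher (*TGFA*) and 1 lower (*EGFR*), beside 8.32% and 4.7% of all tested genes. The control and KO libraries did not overlap in 4 of the 7 members (*TGFA*, *EGFR*, *HBEGF* and *ERBB3*), beside 37.8% of all tested genes. These counts are too small to set the members apart from the background. An exact two-sided permutation test of 3 against 3 libraries gave 0.1, the smallest p it can give, for each of these 4 members. Groups without overlap always give this value, so the test adds nothing to the lack of overlap.

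**Figure D1:**
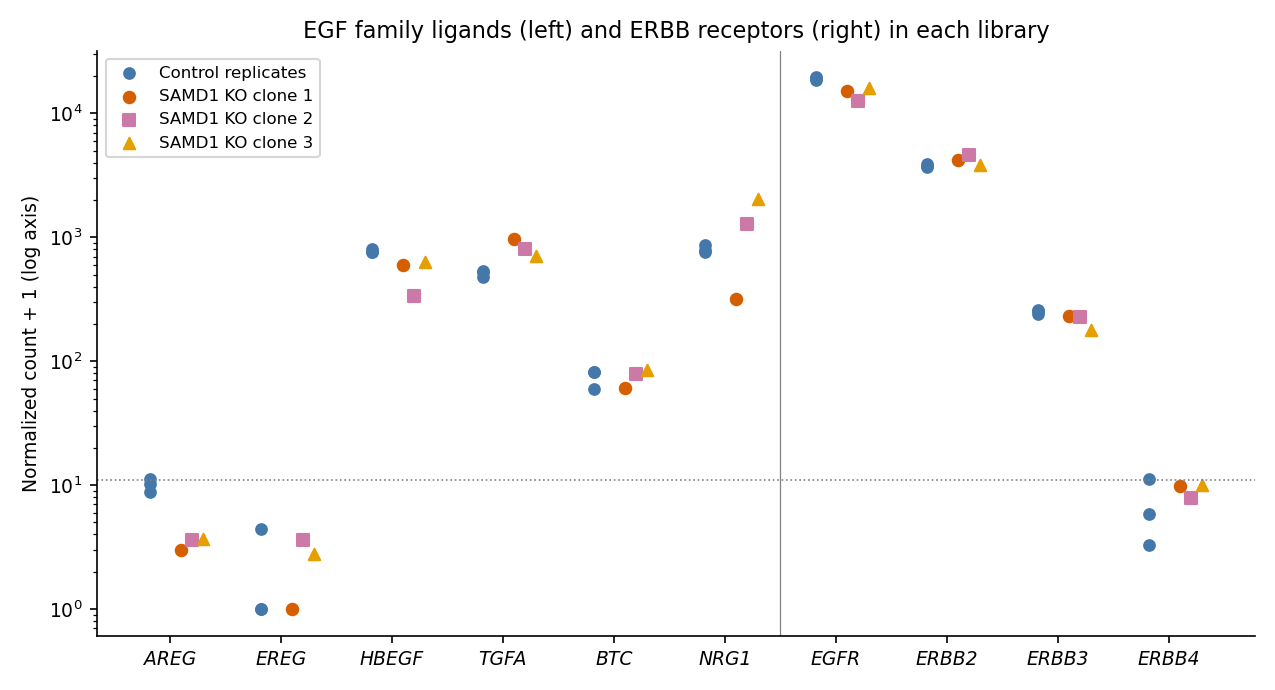
Normalized count plus 1 (log axis) of each ligand and receptor gene in each of the 6 libraries. Blue points are control replicates, the other symbols are KO clones, and the dotted line marks the count minimum for testing, under which *AREG*, *EREG* and *ERBB4* lie.

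Of the ligands, *TGFA*, a high-affinity EGFR ligand, rose in *SAMD1* KO cells. It lies on chromosome 2 (70447284 to 70554193, minus strand, GENCODE 44 on GRCh38, as for all genes here). Its normalized counts were 536, 474 and 526 in control and 973, 802 and 705 in KO clones 1 to 3. All 3 clones lay above all 3 control replicates. The means were 512 ± 33.7 and 827 ± 136 (SD, n = 3 each), and the log2 fold change was 0.68 (SE 0.13, 95% interval 0.38 to 0.98, limma adjusted p = 0.0156). Without any 1 of the 6 libraries the log2 fold change ran from 0.56 to 0.79 and *TGFA* was still called, although its adjusted p was 0.0677, 0.0799 and 0.0693 without control replicates 1, 2 and 3.

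*HBEGF*, the heparin-binding ligand of EGFR and ERBB4 and the ligand with the most reads per length in control cells, was lower in all 3 clones but was not called. It lies on chromosome 5 (140332843 to 140346603, minus strand). The control replicates had normalized counts of 797, 760.2 and 766 and KO clones 1 to 3 had 592, 338 and 634. Clone 2 lay far below the other two clones, and no KO value reached the control range. The means were 775 ± 19.9 and 521 ± 160 (SD, n = 3 each), with a log2 fold change of -0.62 (SE 0.22, 95% interval -1.15 to -0.099, limma adjusted p = 0.115). Without clone 2 the log2 fold change was -0.34, with an adjusted p of 0.0352. In edgeR and DESeq2 the log2 fold change of *HBEGF* was -0.57 in each, with an adjusted p of 0.132 and 0.0543. The unadjusted p was 0.0329 in edgeR and 0.01004 in DESeq2, the latter only just missing the limit of 0.01.

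The low value of *HBEGF* in clone 2 came together with low values of the genes around it. In clone 2 the median log2 difference from the control mean over the 40 tested genes nearest to *HBEGF*, 20 on each side, was -0.53, against -0.036 in clone 1 and 0.0079 in clone 3. The absolute value of such a median lay below 0.368 for 95% of all positions in clone 2. With the neighbours' median subtracted in each library, an alternative chosen after seeing the data, the log2 fold change of *HBEGF* was -0.44 with a limma adjusted p of 0.0272. No other tested member had a neighbourhood beyond the corresponding limit in any clone, the furthest being *EGFR* in clone 3 with -0.14.

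*NRG1*, which encodes a ligand of ERBB3 and ERBB4, differed between the clones more than any other tested member and in opposite directions. It lies on chromosome 8 (31639222 to 32855666, plus strand). The control replicates had normalized counts of 756, 785 and 861, while clones 1, 2 and 3 had 316, 1270 and 2047. Clone 1 lay below all control replicates and clones 2 and 3 lay above them. The log2 differences from the control mean were -1.33, 0.67 and 1.36 in clones 1 to 3. The genes around *NRG1* showed no such shift, with neighbour medians of -0.0030, -0.025 and 0.034.

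As a group the KO clones gave *NRG1* a mean of 1211 ± 867, against 801 ± 54.5 in control (SD, n = 3 each), and a log2 fold change of 0.23 (SE 0.60, 95% interval -1.18 to 1.64, limma adjusted p = 0.832). Its coefficient of variation among the KO clones, 71.6%, was larger than that of 98.8% of all tested genes. Without clone 1 the log2 fold change was 1.01, with a limma adjusted p of 0.0161, and *NRG1* was called higher. Without clone 3 it was -0.33, with an adjusted p of 0.698.

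**Figure D2:**
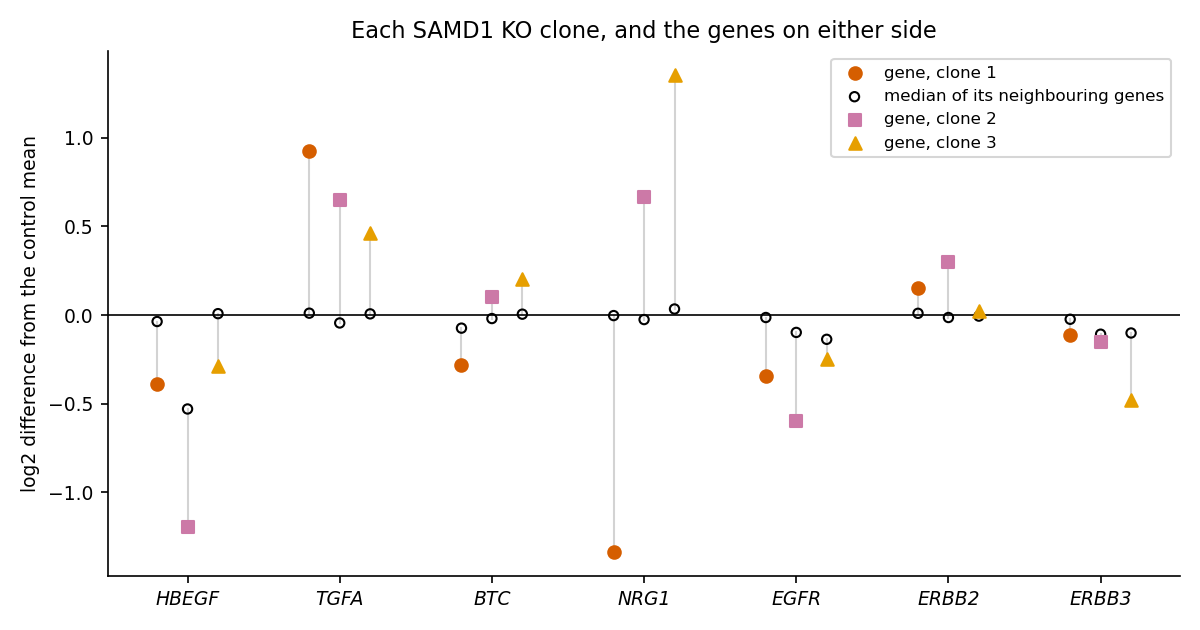
Log2 difference of each KO clone from the control mean for the 7 tested members (colored symbols), with the median of the 40 neighbouring genes in the same clone (open circles). *NRG1* runs from -1.33 in clone 1 to 1.36 in clone 3, and the neighbours of *HBEGF* reach -0.53 in clone 2.

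*BTC*, betacellulin, was detected at a low level and its groups overlapped. Located on chromosome 4 (74744759 to 74794523, minus strand), it had normalized counts of 58.3, 81.2 and 80.2 in control and 59.3, 77.8 and 83.6 in KO clones 1 to 3. The log2 fold change was 0.0074 (SE 0.21, 95% interval -0.49 to 0.51, limma adjusted p = 0.985). That interval leaves room for a change of either sign up to about the size of the cut-off.

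*AREG*, amphiregulin, was close to the detection limit in control cells and lower still in the KO clones. The gene (chromosome 4, 74445136 to 74455005, plus strand) was under the count minimum. Its reads numbered 8, 8 and 9 in control and 2, 3 and 3 in the clones, which corresponds to normalized counts of 9.15, 7.83 and 10.3 against 1.98, 2.59 and 2.7. The ranges did not overlap, and pooled over the libraries, 25 reads of 112875541 stood against 8 of 130898671. With the reads scaled by the libraries' size factors, the ratio of KO to control was 0.270, with an exact 95% interval of 0.105 to 0.618 that covers counting error only. In the fit without a filter on low counts, over 16476 genes, the log2 fold change was -1.56 (SE 0.31, limma adjusted p = 0.0206) and *AREG* was called lower, as were 1.94% of the genes in that fit.

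*EREG*, epiregulin, next to *AREG* on chromosome 4 (74365145 to 74388749, plus strand), was at the floor. It had 3, 0 and 0 reads in control and 0, 3 and 2 in the clones. No difference was detectable at this depth, the ratio of KO to control, scaled by size factors, being 1.41 with an exact 95% interval of 0.274 to 9.06.

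Of the receptors, *EGFR* had by far the most reads and was lower in every clone. It lies on chromosome 7 (55019017 to 55211628, plus strand). Its normalized counts were 18647, 19556 and 19325 in control and 15137, 12693 and 16172 in KO clones 1 to 3. All clones lay below all control replicates, with clone 2 lowest. The mean went from 19176 ± 472 to 14667 ± 1786 (SD, n = 3 each), a change of -23.5% and a log2 fold change of -0.39 (SE 0.091, 95% interval -0.61 to -0.18).

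This difference had an unadjusted p of 0.00302 and an adjusted p of 0.0319 in limma, but its size was below the limit of 0.5, so *EGFR* was not called. The adjusted p rose to 0.114, 0.129 and 0.128 without control replicates 1, 2 and 3, and it was between 0.0142 and 0.0326 without any 1 clone. With the neighbours' median subtracted, the log2 fold change was -0.32 and the adjusted p 0.0510. In edgeR and DESeq2 the log2 fold change was -0.38 and -0.39, with an adjusted p of 0.0363 and 0.00187, and *EGFR* was not called. The lncRNA *EGFR-AS1* overlaps 1.17% of the *EGFR* exons on the opposite strand.

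*ERBB2*, the receptor without a known ligand, showed no difference beyond its spread. On chromosome 17 (39687914 to 39730426, plus strand), it had normalized counts of 3776, 3901 and 3662 in control and 4204, 4651 and 3838 in KO clones 1 to 3. Clones 1 and 2 lay above the control replicates and clone 3 within their range. The log2 fold change was 0.16 (SE 0.077, 95% interval -0.021 to 0.34, limma adjusted p = 0.215). Exons of *MIEN1* and *PGAP3* on the opposite strand overlap 5.53% and 1.40% of the *ERBB2* exons, and the strand setting of the counting is not given in the sources used here.

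*ERBB3*, the kinase-impaired receptor for NRG1, lies on chromosome 12 (56076799 to 56103505, plus strand). The control replicates had normalized counts of 252, 239.7 and 259 and the clones 231, 225 and 179. The groups did not overlap, clones 1 and 2 lying just under the control range and clone 3 further below, but the log2 fold change of -0.25 (SE 0.13, 95% interval -0.55 to 0.059) had a limma adjusted p of 0.253. *ERBB4*, on chromosome 2 (211375717 to 212538841, minus strand), was under the count minimum with 2, 5 and 9 reads in control and 9, 8 and 10 in the clones. Its ratio of KO to control, scaled by size factors, was 1.43 (exact 95% interval 0.740 to 2.83), so no difference was detectable at this depth.

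**Figure D3:**
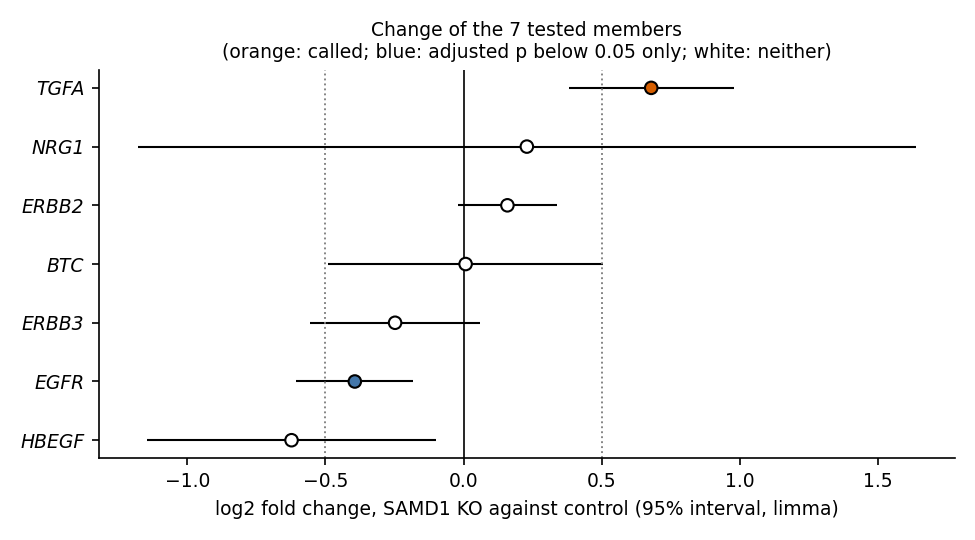
Change of the 7 tested members in *SAMD1* KO cells relative to control (log2 scale, limma) with its 95% interval, with dotted lines at the limits of 0.5. *TGFA* (orange) was called, *EGFR* (blue) passed only the adjusted p, and the interval of *NRG1* runs from -1.18 to 1.64.

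The clones differed among themselves more than the control replicates did. The coefficient of variation was larger in KO than in control in 6 of the 7 tested members, beside 82.8% of all tested genes. The exception was *BTC*. The median coefficient of variation of the 7 members was 3.87% in control and 16.4% in KO, and over all tested genes it was 4.06% and 10.5%.

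Levels of different genes were compared as normalized counts per kb of merged exon length. In control cells the mean level per kb was 1203 for *EGFR*, 366 for *ERBB2*, 259 for *HBEGF*, 104 for *TGFA*, 37.5 for *NRG1*, 27.6 for *BTC*, 21.4 for *ERBB3*, 5.54 for *AREG*, 0.448 for *ERBB4* and 0.200 for *EREG*. Neighbours in this order had ranges that did not overlap, except *BTC* with *ERBB3* and *ERBB4* with *EREG*. In the KO clones the means followed the same order, at 920 for *EGFR*, 410.0 for *ERBB2*, 174 for *HBEGF*, 168 for *TGFA*, 56.7 for *NRG1*, 27.7 for *BTC*, 18.1 for *ERBB3*, 1.48 for *AREG*, 0.636 for *ERBB4* and 0.256 for *EREG*. Here *HBEGF* overlapped with *TGFA* and *NRG1* with *BTC*. With the length of the canonical transcript instead, *ERBB3* stood above *BTC* in both groups.

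*HBEGF* had the highest level of the ligands in every control replicate, and in the clones it stood level with *TGFA* in clone 1, under it in clone 2 and above it in clone 3. The ratio of *HBEGF* to *TGFA* per kb was 2.44, 2.64 and 2.40 in control and 1.00, 0.693 and 1.48 in KO clones 1 to 3. *TGFA* made up 24.8%, 22.8% and 24.3% of the summed ligand level per kb in control and 45.6%, 44.5% and 29.6% in the clones. The share of *HBEGF* was 60.7%, 60.2% and 58.2% in control against 45.6%, 30.8% and 43.7% in KO, and *NRG1* held from 8.05% to 9.16% in control and 3.41%, 16.2% and 19.8% in clones 1 to 3. The summed ligand level per kb itself overlapped between the groups, with 439, 423 and 440.0 in control and 434, 367 and 485 in KO.

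Among the receptors *EGFR* held 75.1%, 75.5% and 76.2% of the summed level per kb in control and 68.9%, 62.9% and 72.3% in KO clones 1 to 3. *ERBB2* took 23.5%, 23.3% and 22.3% in control and 29.6%, 35.6% and 26.5% in KO. The summed receptor level per kb was 1557, 1626 and 1590.0 in control and 1377, 1267 and 1402 in the clones, with no overlap. Shares of a sum move together by construction, and no test was made of them.

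**Figure D4:**
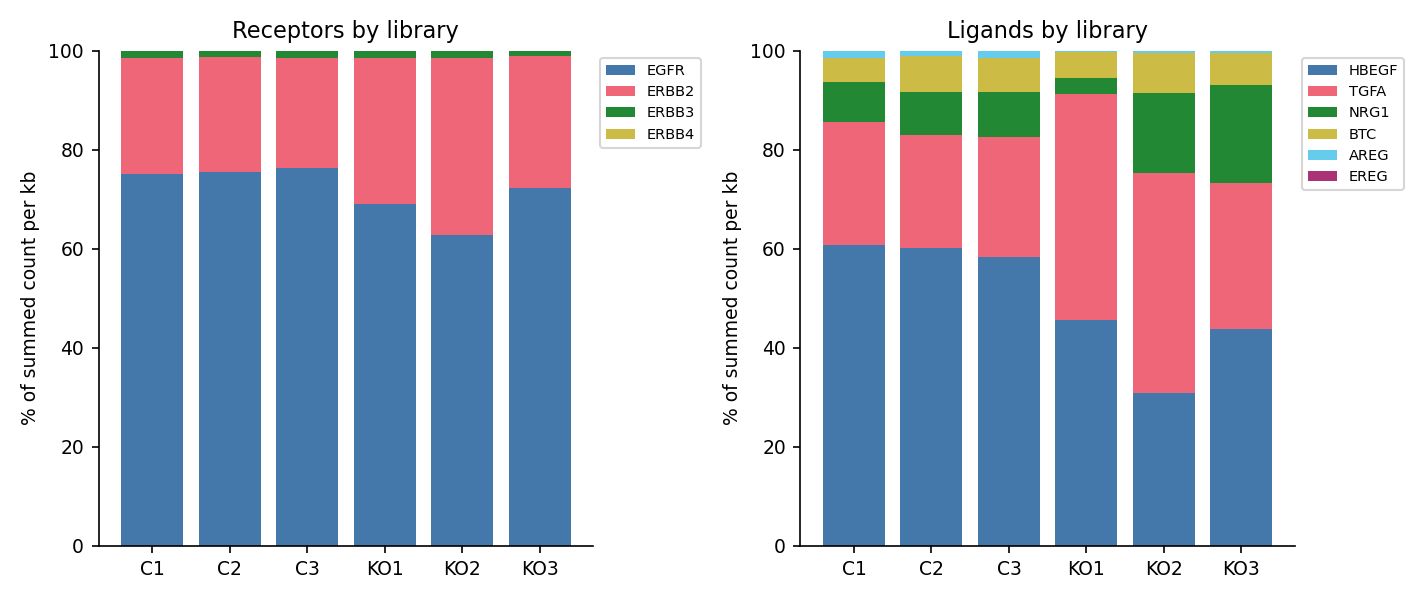
Share of each receptor (left) and each ligand (right) in the summed normalized count per kb, in percent, for control replicates (C1 to C3) and KO clones (KO1 to KO3). *EGFR* held from 62.9% to 72.3% of the receptor sum in the clones and from 75.1% to 76.2% in control.

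The other genes of the pathway were described with lists of ligands, proteases, inhibitors, transducers and target genes, by counts and medians beside all tested genes, whose median log2 fold change was -0.0059. Of 5 other EGF family ligands, *EGF*, *EPGN* and *NRG4* were under the count minimum and *NRG2* and *NRG3*, which encode neuregulins, were tested and not called. *NRG3* had normalized counts of 50.3, 42.1 and 45.8 in control and 18.8, 54.4 and 228 in KO clones 1 to 3. Like *NRG1*, *NRG3* was below the control range in clone 1 and well above it in clone 3 (limma adjusted p = 0.751). In clone 2 it was only just above that range. Its log2 difference from the control mean there was 0.24, against 0.67 for *NRG1*. *NRG2* had 57.2, 70.4 and 71.0 in control and 182, 57.0 and 130.4 in the clones (limma adjusted p = 0.258), and was called higher without clone 2 or with the neighbours' median subtracted.

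Of 10 genes for ligand shedding, 8 were tested and 0 were called in limma, edgeR or DESeq2. In limma, 5.77% of all tested genes were called higher and 2.08% lower. By an unadjusted limma p below 0.05, 2 were higher and 0 lower, beside 16.1% and 13.5% of all tested genes. The median log2 fold change of the 8 was 0.025. The 2 with the smallest p were *RHBDL2*, a rhomboid protease, with a log2 fold change of 0.75, and *RHBDF2*, which encodes the ADAM17 partner iRhom2, with 0.34 (limma adjusted p = 0.166 for each). The normalized counts of *RHBDL2* were only 6.86 to 9.78 in control and 12.6 to 18.1 in KO. Its control mean of 8.22 was under the count minimum, so it was tested only through the KO group. Its p, and its place among the 2 higher genes, are therefore weak.

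Of 16 genes that attenuate the receptors, 15 were tested. In limma, edgeR and DESeq2 alike 1 was called higher and 0 lower, beside 5.77% and 2.08% of all tested genes in limma. By an unadjusted limma p below 0.05, 4 were higher and 3 lower, beside 16.1% and 13.5% of all tested genes. The median log2 fold change of the 15 was 0.0066. *CBLB*, a ubiquitin ligase that marks activated receptors for degradation, rose. Its normalized counts were 251, 264 and 296 in control and 352, 419 and 427 in KO clones 1 to 3, with no overlap (log2 fold change 0.56, SE 0.12, limma adjusted p = 0.0246). *CBL*, of the same list and with more reads, went the other way without being called. It had 7259, 8057 and 7749 in control and 7078, 5523 and 6775 in the clones, with no overlap (log2 fold change -0.26, limma adjusted p = 0.130). Without control replicate 1 *CBLB* was not called, and without clone 3 *LRIG1*, a transmembrane inhibitor of the ERBB receptors, was called higher as well.

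Of 25 signal transducers, 24 were tested and 0 were called in limma, edgeR or DESeq2. By an unadjusted limma p below 0.05, 4 were higher and 5 lower, beside 16.1% and 13.5% of all tested genes. The median log2 fold change of the 24 was 0.030. By adjusted p alone 1 was higher and 2 were lower, beside 8.32% and 4.7% of all tested genes. *ARAF*, a RAF kinase, had a log2 fold change of 0.40 (limma adjusted p = 0.00865). *STAT3*, a transcription factor activated downstream of the receptors, had -0.26 (adjusted p = 0.0132), and *PTPN11*, which encodes the phosphatase SHP2, had -0.25 (adjusted p = 0.0149).

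The 18 genes known to respond to ERK signaling were all tested, with a median log2 fold change of 0.24. In limma, edgeR and DESeq2 alike 4 were called higher and 0 lower, beside 5.77% and 2.08% of all tested genes in limma. The 4 were *SPRY1* and *SPRY4*, Sprouty inhibitors of receptor tyrosine kinase signaling, *ETV1*, an ETS transcription factor, and *JUNB*, a subunit of AP-1. By adjusted p, *ETV5* and *PHLDA1* were higher as well, which made 6 higher and 0 lower, beside 8.32% and 4.7% of all tested genes. An unadjusted limma p below 0.05 was reached by 10 genes that were higher and 0 that were lower, beside 16.1% and 13.5% of all tested genes. In 11 of the 18 genes the groups did not overlap in either direction, beside 37.8% of all tested genes. These include *SPRED1*, which was lower in KO (log2 fold change -0.12). Of the 18 genes, 14 had a positive log2 fold change and 4 a negative one. The list was chosen with earlier results of these data known, so these counts describe it and are not an independent test.

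*JUNB* had normalized counts of 279, 348 and 263 in control and 477, 698 and 672 in KO clones 1 to 3 (log2 fold change 1.04, SE 0.18, limma adjusted p = 0.0110). *ETV1* had 851, 921 and 912 in control and 1378, 1358 and 1749 in the clones (log2 fold change 0.73, SE 0.11, adjusted p = 0.00653). *SPRY4* had 3082, 3142 and 3047 in control and 7743, 3748 and 6679 in the clones (log2 fold change 0.91, SE 0.24, adjusted p = 0.0498). Clone 2 showed the smallest rise of *SPRY4* and the largest of *JUNB*. *SPRY1* had 132, 135 and 109 against 180.0, 183 and 266 (log2 fold change 0.72, SE 0.19, adjusted p = 0.0464). *ETV1* and *JUNB* were called without any 1 of the 6 libraries, whereas *SPRY1* and *SPRY4* both dropped out without control replicate 1, 2 or 3, which left 2 called genes. *SPRY4* also dropped out without clone 1 or clone 3, and without clone 3 *DUSP5*, an ERK phosphatase, was called lower.

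**Figure D5:**
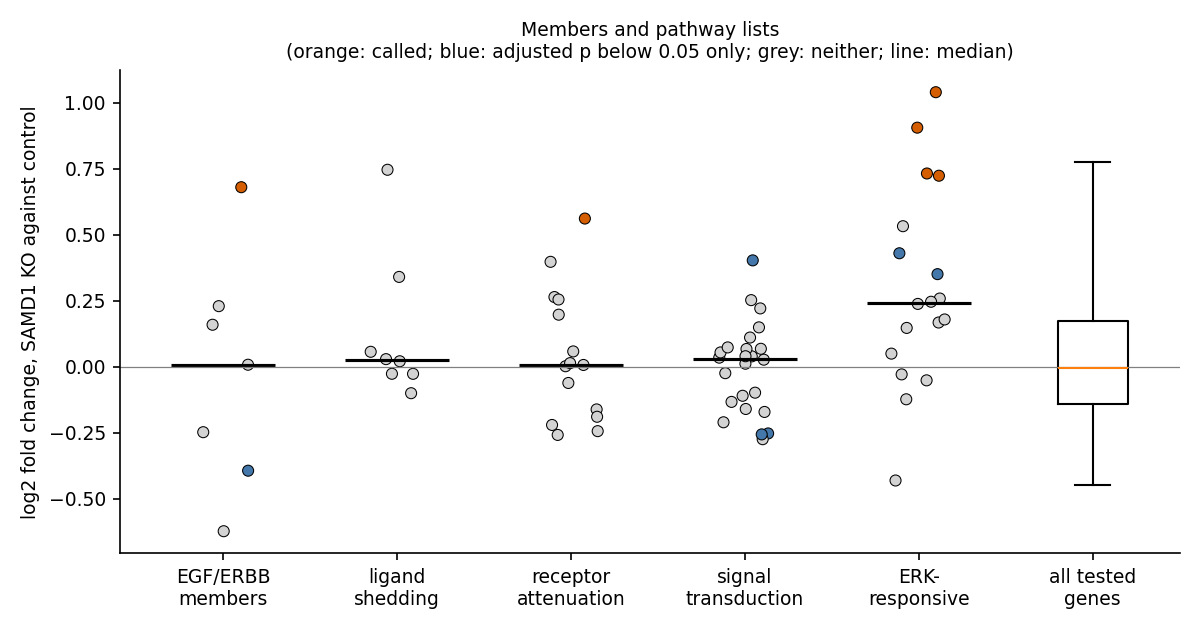
Change on the log2 scale in *SAMD1* KO cells relative to control for the tested genes of each list (points, with a line at the median) and for all 12773 tested genes (box from the 25th to the 75th percentile, whiskers from the 5th to the 95th). The ERK-responsive genes have a median of 0.24 and 4 called genes, and the other 3 pathway lists have medians between 0.0066 and 0.030. The lists were chosen with earlier results of these data known.

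Genes whose log2 values followed a member most closely over the 6 libraries were sought among the 11452 genes whose mean normalized count reached 50. For *TGFA* these were *POLR2F* (Pearson r = 0.999), *COA5* (0.994) and *RCBTB1* (0.993), and for *EGFR* they were *LRBA* (0.997), *MAP3K1* (0.997) and *SLC36A1* (0.996). With only 6 libraries, 229 genes had r above 0.95 with *TGFA* and 227 with *EGFR*. The libraries share their 2 groups, so these values describe likeness of pattern only.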

How the data were processed

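RNA was extracted from PaTu8988t control cells and *SAMD1* KO clones, and libraries were made with a stranded mRNA kit. Reads were aligned by the authors to GenCode transcripts with STAR, and their processing notes name featureCounts, DESeq2 and hg38. The strand setting is not given in the sources used here. The deposited signal is in normalized counts, for which the authors divided reads per gene by a size factor of the library. In each of the 6 libraries 100% of the values were whole multiples of 1 step (tolerance 0.01 of a read), so whole reads were recovered. The deposited table of the authors' own comparison (mean, log2 fold change, standard error, statistic, p-value and adjusted p-value) was not used. No sample column was left unused (0).

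limma 3.58.1 (lmFit, eBayes with trend, R 4.3.3) was fitted to log2(normalized count + 1) of genes with a mean of at least 10, without a covariate. All tests were two-sided. Calls needed a log2 fold change over 0.5 in size and p under 0.01 before adjustment, as in the study's methods. Fold changes on this scale understate the change of low genes. The script was tested on simulated data. Alternatives used other pseudocounts (0.1 and 10), no filter or a minimum mean of 50, 75th percentile scaling, a replicate block, recovered reads in edgeR 4.0.16 and DESeq2 1.42.0, all libraries but 1, and calls by an adjusted p below 0.05. Subtracting the median of 20 genes on each side, and the canonical transcript length, were added after seeing the data. Positions and exon lengths are from GENCODE 44 on GRCh38, and 99.3% of tested genes had a position, with 183 symbols matched by an older symbol.

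The members and the gene lists were chosen with earlier results of these data known. The values of 1 marker in the leukocyte list are not reported here. The genes named are the 10 members, *SAMD1*, of each list the called genes and otherwise the 2 with the smallest p, and, for the 2 tested members with the smallest p, the 3 genes of most similar pattern. *PTPN11*, *ETV5*, *PHLDA1*, *LRIG1*, *CBL*, *SPRED1* and *DUSP5*, and the markers given by name, are not covered by this rule, having been chosen after seeing their values. Precision is set by the 3 libraries in each group and, for members with few reads, by counting. Intervals, levels and promoter counts were computed in Python 3.11.15 (SciPy 1.17.1, pandas 2.3.3 and numpy 2.4.6), and plots drawn with matplotlib 3.10.9.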

Additional observations from a re-analysis of the deposited data

How the results depend on the processing

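*TGFA* was called higher under each of the 10 alternatives for the whole set of libraries (log2 fold change 0.67 to 0.70) and without any 1 library (0.56 to 0.79). Of the members, 1 was called lower without a filter on low counts (*AREG*) and 1 with an adjusted p as the call (*EGFR*, -0.39), against 0 in the main fit. An adjusted p as the call also gave 600 lower genes over all tested genes, against 266, and 1 higher and 2 lower signal transducers, against 0 and 0. Without 1 library each, the number of members called higher ran from 1 to 2, receptor attenuation genes called higher from 0 to 2, and ERK-responsive genes called higher from 2 to 4 and lower from 0 to 1. Over the same fits the median log2 fold change ran from -0.036 to 0.047 for receptor attenuation and from 0.23 to 0.32 for ERK-responsive genes. The log2 fold change of *NRG1* ran from -0.33 to 1.01 and that of *BTC* from -0.15 to 0.15. *BTC* changed sign without control replicate 1 (-0.15), clone 2 (-0.039) or clone 3 (-0.091), and *NRG1* without clone 3 (-0.33). The median of receptor attenuation genes was 0.026 after rescaling by the 75th percentile and 0.036 with the neighbours' median subtracted, which also gave -0.029 for signal transduction. The median of ERK-responsive genes was 0.27 with edgeR and with DESeq2 (0.272 and 0.268) and 0.30 with the neighbours' median subtracted (0.297). edgeR and DESeq2 gave *NRG1* a log2 fold change of 0.61 and 0.60, with adjusted p-values of 0.501 and 0.629, so it was not called. With the canonical transcript length, *EGFR* held 68.9% of the receptor level in control and 60.4% in KO, and the ratio of *HBEGF* to *TGFA* in control was 2.65. The cause of these shifts was not tested.

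The replicate numbers were not treated as pairs in the main fit. Deviations of libraries with the same number correlated weakly, at 0.039, 0.134 and 0.032. Control replicates 1 and 2 were most like the KO library of their own number, and control replicate 3 was not. These values do not settle whether the numbers pair the samples. With the replicate number as a block, 725 genes were called higher and 259 lower, 1 member was called higher and 0 lower, and 3 ERK-responsive genes were called higher. The adjusted p was 0.0239 for *TGFA* and 0.0504 for *EGFR*. At these depths *AREG*, *EREG* and *ERBB4*, with at most 10 reads in a library, are limited by counting, which also adds to the spread of *BTC*, with 51 to 93 reads in a library. The 3 libraries in each group limit all members.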
